A study of Rattus norvegicus with 12 samples.

Results

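Lung RNA was compared between rats that went through trauma-hemorrhagic shock and rats that went through sham shock, both after the mesenteric lymph duct had been tied off. These were the 3 T/HS-LDL arrays and the 3 T/SS-LDL arrays, 6 of the 12 arrays of the series, chosen by the titles of the samples. In each of these groups replicates 1 and 3 were near-identical arrays, so they were averaged and counted as 1 sample. That left 4 of 8 samples, 2 in each group, and all 8740 probe sets that are not array controls were described.

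All rats were male Sprague-Dawley animals, and whole lung was taken 3 h after the end of 90 min of shock or sham shock, 4.5 h after the start. Both ligated groups had a midline opening of the abdomen in which the efferent mesenteric lymphatic vessel was freed, tied and divided, followed by cannulation of the femoral artery and the jugular vein and a laparotomy. T/HS-LDL rats were then bled to a mean arterial pressure of 30 mmHg, which was held for 90 min, and the shed blood was given back. The syringe held 100 units of heparin, and the laparotomy of the shock groups is given as 5 cm. T/SS-LDL rats were not bled and their pressure stayed in the normal range. Their labels mention neither heparin nor a return of blood, so those steps and the shock cannot be told apart here. T/HS and T/SS rats had the same treatments with the lymph duct not tied. Body temperature was kept at 37 °C in all groups. The series text describes lung injury after shock with the duct open and no measurable lung injury after shock with the duct ligated, and it sets T/HS-LDL against T/SS-LDL to find genes that shock changes in a lung that is not injured.

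Blood loss and its return deprive the gut of flow and restore it, and mesenteric lymph carries what the gut releases to the lung before other organs. Neutrophils held in the lung's small vessels, macrophages and endothelium are known early sources and targets of inflammatory signals such as interleukin 1. The walls of lung vessels and airways hold smooth muscle, and in rodents the sleeves of the pulmonary veins also hold heart-type muscle.

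The deposited values were linear intensities with array medians between 647 and 664 in the 6 ligated arrays, and all values below are log2 of intensity. The near-identical pairs differed by a robust SD of 0.0189 and 0.0494, against 0.195 to 0.208 for the other pairs within a group and 0.172 to 0.203 for pairs across the ligated groups. Separate animals are therefore represented by no more than 2 values per group, although each array is labelled as a biological replicate of its own. Markers that define lung stood at or near the top of the scale, with a mean of 14.9 for Sftpc and for Ager, which mark alveolar type II and type I cells, and 14.6 for Scgb1a1 of airway club cells. At that level a difference can be hidden, as the scale ends there. Per-sample values are given below in a fixed order, the averaged pair and then the remaining array (replicate 1 in T/SS, replicate 2 in the other groups), and errors of differences are standard errors from limma with 2 samples in each group.

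No probe set passed limma's test at an adjusted p of 0.05 (0 of 8740, or 0%), and the smallest adjusted p was 0.998. At an unadjusted p under 0.05 there were 331 probe sets (3.79%), 158 higher in T/HS-LDL (1.81%) and 173 lower (1.98%), where 437 would be met if no probe set differed. At an unadjusted p under 0.01 there were 66 (0.755%), 29 higher (0.332%) and 37 lower (0.423%), against 87.4. The difference was above 0 for 4729 probe sets (54.1%) and below 0 for 4011 (45.9%). The samples of the groups did not overlap for 2549 probe sets (29.2%), higher for 1464 (16.8%) and lower for 1085 (12.4%). Differences over 2-fold were met in 52 probe sets (0.595%), 34 higher (0.389%) and 18 lower (0.206%). Between the averaged sample and replicate 2 of T/HS-LDL itself, 155 probe sets differed by over 2-fold, and between those of T/SS-LDL 86 did. Every gene below is therefore given by its values, and none of them passed the adjusted test.

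The largest difference of a named gene in either direction was that of Il1b, which encodes interleukin 1 beta, a cytokine that starts fever, leukocyte recruitment and endothelial activation. Its levels were 11.32 and 11.66 in T/HS-LDL and 9.32 and 9.24 in T/SS-LDL. Both shock samples lay far above both sham samples. The difference was 2.21 ± 0.38, or 4.62-fold, with an unadjusted limma p of 0.000735 and an adjusted p of 0.998. All 3 probe sets of Il1b were higher, by 2.21, 1.81 and 1.23. Il1r2, the decoy receptor that binds interleukin 1 without passing on a signal, stood at 12.79 and 12.53 in T/HS-LDL and at 10.95 and 11.24 in T/SS-LDL, again with no overlap. Its difference was 1.56 ± 0.31, or 2.96-fold.

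Of the 9 measured genes of the interleukin 1 family and its receptors, 6 were higher and 3 lower, and 5 did not overlap, all of them higher. Over all 4736 genes 759 higher and 622 lower did not overlap. Il1rn, the secreted receptor antagonist, differed by 0.18, and the signalling receptor Il1r1 by 0.12. Il1a, the other main agonist, differed by -0.03, and Casp1, the protease that matures interleukin 1 beta, by 0.06 with overlapping groups. Il1rn, Il1r1 and Il1a were chosen after their values were seen. The median of the family was 0.12, against 0.01 over all 4736 genes with a symbol, and it was 0.072 without the averaged T/SS-LDL sample and 0.23 without replicate 2 of T/HS-LDL. Most of the family thus lay near 0, and the cytokine Il1b and the decoy Il1r2 stood apart.

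Genes known from neutrophils and their granules were the list with the highest median. Of 21 measured, 20 were higher and 1 lower, 9 were higher at an unadjusted p under 0.05 and none lower, and 14 did not overlap, all higher. Their median difference was 0.43. Il1r2 above is a member of this list as well as of the interleukin 1 list. Over all 4736 genes 2500 were higher, 92 were higher and 103 lower at an unadjusted p under 0.05, and 759 higher and 622 lower did not overlap. S100a8 and S100a9, which form calprotectin, the main cytosolic protein of neutrophils, showed this pattern. S100a8 stood at 13.44 and 13.58 in T/HS-LDL and at 12.27 and 12.60 in T/SS-LDL, a difference of 1.08 ± 0.36. S100a9 stood at 14.73 and 14.68 against 13.83 and 13.70, a difference of 0.94 ± 0.39. The T/HS-LDL samples were the higher ones for both genes, and S100a9 came close to the top of the scale there.

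Alox5ap encodes the protein that presents arachidonic acid to 5-lipoxygenase for leukotriene synthesis. It stood at 12.03 and 12.05 in T/HS-LDL and at 10.87 and 11.19 in T/SS-LDL, and its difference of 1.01 ± 0.16 had the smallest p of all named genes (unadjusted limma p 0.000398). Its other probe set differed by 0.57. Fgr, a Src-family kinase of myeloid cells, stood at 10.03 and 9.70 against 9.30 and 9.29, a difference of 0.57 ± 0.12. The samples of the groups were apart for both genes.

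Hp encodes haptoglobin, the scavenger of free hemoglobin, which neutrophils also store. It stood at 12.95 and 13.17 in T/HS-LDL and at 11.80 and 11.32 in T/SS-LDL, a difference of 1.5 ± 0.43. Ceacam4, of the carcinoembryonic antigen family, stood at 11.01 and 10.85 against 9.42 and 9.27, a difference of 1.58 ± 0.43. The gelatinase gene Mmp9 was less even, with 9.37 and 10.65 against 8.88 and 9.17. For Mmp9 replicate 2 of T/HS-LDL was much the higher sample, and the difference of 0.98 was 0.34 without it. Not all neutrophil genes took part: Lcn2, which encodes the iron-binding lipocalin of neutrophil granules, stood at 13.84 and 14.46 against 14.36 and 13.19, so the groups overlapped, and its difference of 0.38 became -0.21 without replicate 2 of T/SS-LDL.

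In whole tissue, more cells of a type and more RNA per cell cannot be told apart. The summed intensity of the 21 neutrophil genes was 106833 and 118804 in T/HS-LDL and 76393 and 66641 in T/SS-LDL. Whether that sum has a part in the Il1b difference was not tested. No marker of the list was at 0, since an array gives every probe set a level above 0.

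Monocyte and macrophage genes were higher for 16 of 21, with a median of 0.08. At an unadjusted p under 0.05 there were 3, all higher, against 92 higher and 103 lower of 4736 over all genes. Cd14, the coreceptor for bacterial lipopolysaccharide, stood at 12.28 and 12.87 in T/HS-LDL and at 11.46 and 11.50 in T/SS-LDL. The T/SS-LDL samples lay close together and below both shock samples, with a difference of 1.10 ± 0.32. Cd14 also counts in the neutrophil list, so these lists are not wholly separate. Vcan, the proteoglycan versican, which monocytes express strongly, stood at 9.45 and 9.22 against 8.27 and 8.35, a difference of 1.03 ± 0.31. The chemokine receptor Ccr2 of monocytes stood at 8.08 and 8.14 against 7.79 and 7.82, a smaller difference of 0.30 ± 0.09 at a dim level. The summed intensity of the whole macrophage list was 134087 and 140863 in T/HS-LDL against 133445 and 124218 in T/SS-LDL, so that the averaged samples of the groups were nearly equal. The median of the list was 0.16 without the averaged T/SS-LDL sample and 0.018 without replicate 2 of T/SS-LDL.

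**Figure D1:**
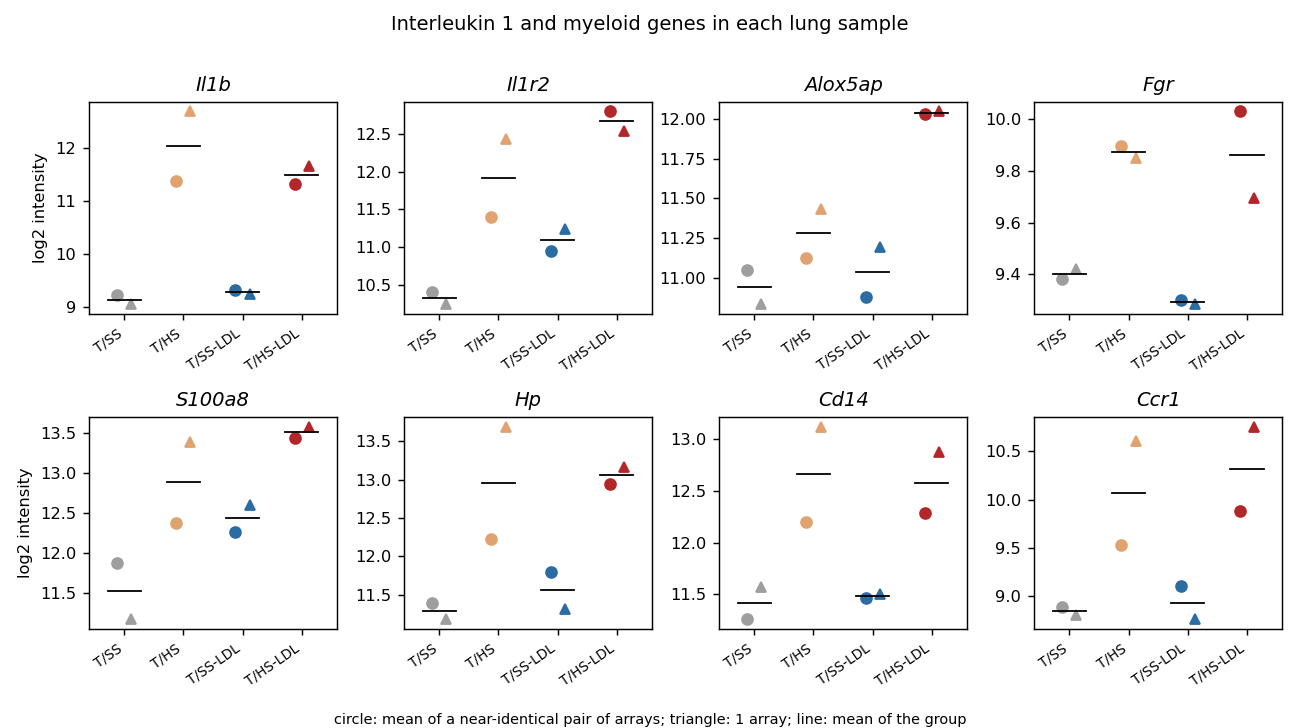
Log2 intensity (vertical axis) of 8 interleukin 1 and myeloid genes in each of the 8 lung samples, by group (horizontal axis). Circles are means of a near-identical pair of arrays, triangles are 1 array and lines are group means, and for each gene both T/HS-LDL samples lie above both T/SS-LDL samples, most widely for Il1b with 11.32 and 11.66 against 9.32 and 9.24.

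Chemokines and their receptors were higher for 14 of 19, with a median of 0.06 that was 0.13 without replicate 2 of T/HS-LDL. Of these genes 7 higher and 2 lower did not overlap, against 759 and 622 of 4736 over all genes. The lower ones, the lymphocyte attractants Ccl5 and Ccl20, differed by -0.39 and -0.05 and were named after their values were seen. Ccr1, the receptor for inflammatory CC chemokines on neutrophils and monocytes, led them at 9.88 and 10.75 in T/HS-LDL and 9.11 and 8.76 in T/SS-LDL, a difference of 1.38 ± 0.39. Replicate 2 of T/HS-LDL was the higher shock sample, and without it the difference was 0.95. The other 27 cytokines and receptors had a median of 0.08, none at an unadjusted p under 0.05, and 9 higher and 3 lower without overlap. The 14 adhesion molecules were 6 higher and 8 lower with a median of -0.01, but Selp among them, which encodes the P-selectin that activated endothelium and platelets show, stood at 9.51 and 11.41 against 9.04 and 9.04. That difference of 1.43 ± 0.90 came mainly from replicate 2 of T/HS-LDL, and Selp was chosen after its values were seen.

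Genes that respond to interferon lay a little higher in T/HS-LDL for 13 of 16, with a median of 0.20 and none at an unadjusted p under 0.05. Of these genes 9 higher and 1 lower did not overlap (759 and 622 of 4736 over all genes). Irf1, a transcription factor that interferon gamma induces, stood at 12.65 and 12.80 against 11.93 and 11.69, a difference of 0.92 ± 0.53. Its T/HS samples stood at 12.72 and 14.60, and the p and errors rest on the spread within all 4 groups, these samples included. With the duct open the same 16 genes were all higher in T/HS than in T/SS, with a median of 1.59, but the 2 T/HS samples were far apart. The chemokine gene Cxcl10, chosen after its values were seen, stood at 8.54 and 8.26 in T/HS-LDL, 7.35 and 7.55 in T/SS-LDL, 8.12 and 14.92 in T/HS, and at 7.58 and 7.48 in T/SS replicate 1 and the averaged T/SS pair. Only replicate 2 of T/HS reached the high level. The interaction of Cxcl10, the ligated difference minus the open one, was -3.04 ± 2.60, with an unadjusted limma p of 0.282. Ccl2, the monocyte attractant, also chosen after its values were seen, stood at 8.57 and 8.29 in T/HS-LDL and at 8.21 and 8.22 in T/SS-LDL.

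Immediate early genes, which are switched on within minutes of a stimulus without new protein synthesis, were higher for 24 of 30. Of these 5 were higher at an unadjusted p under 0.05 and none lower (92 and 103 of 4736 over all genes). Groups did not overlap for 11 higher and 1 lower (759 and 622 of 4736 over all genes). The median was 0.10, or 0.21 without the averaged T/HS-LDL sample. Fosl1, an AP-1 subunit, stood at 8.77 and 8.86 in T/HS-LDL and at 8.46 and 8.42 in T/SS-LDL, a difference of 0.37 ± 0.11. Myc, the growth regulator, stood at 9.27 and 9.25 against 8.77 and 8.53, a difference of 0.61 ± 0.19. The antiproliferative gene Btg1 stood at 13.46 and 13.61 against 13.26 and 12.83, a difference of 0.49 ± 0.16. In all of them both shock samples were above both sham samples. Egr1, a zinc finger factor that vascular cells induce under stress, stood at 7.79 and 7.81 against 7.51 and 7.44, at a dim level. That difference was 0.33 ± 0.10, and the 4 probe sets of Egr1 were all higher, from 0.01 to 0.35. Junb, another AP-1 subunit that was chosen after its values were seen, stood at 11.70 and 12.43 against 11.13 and 11.43 on the brighter of its probe sets, a difference of 0.78 ± 0.28.

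Per2, a repressor in the circadian clock that glucocorticoid hormone also induces, stood at 9.26 and 7.78 in T/HS-LDL and at 7.49 and 7.04 in T/SS-LDL. The groups did not overlap, but the T/SS-LDL levels were dim and the shock samples were far apart. The difference of 1.25 ± 0.46 was 0.51 without the averaged T/HS-LDL sample. Bhlhe40, a clock-linked repressor, stood at 9.08 and 9.55 against 8.72 and 8.87, a difference of 0.52 ± 0.17. Nr1d1, the clock repressor REV-ERB alpha, was the lower one, with 12.37 and 12.76 against 12.85 and 13.34, a difference of -0.53 ± 0.38. Clock genes as a whole had a median of 0.17 over 9 members, 6 higher and 3 lower, which was 0.076 without the averaged T/HS-LDL sample and 0.26 without replicate 2 of T/SS-LDL. No hour of the day is named in the labels.

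Glul encodes glutamine synthetase, which lung makes more of under glucocorticoid. It stood at 11.74 and 11.91 in T/HS-LDL and at 10.28 and 11.02 in T/SS-LDL, so that the averaged T/SS-LDL sample was lowest. The difference was 1.18 ± 0.25 on this probe set and 0.33, 0.28 and 0.02 on the other 3. The list of 24 glucocorticoid-responsive genes had 11 higher and 13 lower and a median of -0.01. Nr3c1, the glucocorticoid receptor itself, stood at 7.60 and 7.64 against 7.89 and 7.84 on the probe set with the smallest p, at a dim level. That difference was -0.24 ± 0.09, but only 1 of the 3 probe sets of Nr3c1 was lower, so the gene as a whole has no common direction.

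Chaperone and folding genes were split, 13 higher and 11 lower of 24, with a median of 0.03. Cryab, the small heat shock protein alpha B-crystallin of muscle and epithelium, stood at 11.86 and 11.85 in T/HS-LDL and at 12.49 and 12.29 in T/SS-LDL, a difference of -0.53 ± 0.11. The shock samples were nearly equal and both were lower. Dnajb1, an HSP40 cochaperone that stress induces, stood at 11.84 and 11.42 against 11.16 and 11.11, a difference of 0.49 ± 0.17. Pdia3, a disulfide isomerase of the endoplasmic reticulum, stood at 12.66 and 12.99 against 11.51 and 12.47, a difference of 0.83 ± 0.30 that its other probe set did not share at -0.15.

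Of 31 genes of oxidative stress and heme handling 12 were higher and 19 lower, with a median of -0.02. The mitochondrial superoxide dismutase Sod2 stood at 11.28 and 11.81 against 10.56 and 10.24, a difference of 1.15 ± 0.61, and heme oxygenase Hmox1, which breaks down heme, stood at 12.02 and 11.73 against 11.11 and 10.70, a difference of 0.97 ± 0.47. Both were chosen after their values were seen, and neither group overlapped the other for them. Prdx2, the peroxiredoxin most known from red cells, was lower by 0.28, with 12.86 and 12.97 against 13.18 and 13.19. Of 29 plasma proteins that liver mainly makes, 21 were higher with a median of 0.07. Hp above led them. Rbp4, the retinol carrier, stood at 8.63 and 8.57 against 9.41 and 8.94, and complement C3 at 12.10 and 12.31 against 12.64 and 12.43, both lower in T/HS-LDL. The probe sets the array's annotation calls Crp did not give a common value (0.96, 0.37 and 0.07), and the 2 largest are of the type that hybridizes to a family of sequences, so no level of that gene is given.

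Contractile genes were mostly lower. Of 20 measured genes of smooth muscle and pericytes 18 were lower and 2 higher, 6 were lower at an unadjusted p under 0.05 and none higher, and 12 lower and 1 higher did not overlap. Over all 4736 genes 103 were lower and 92 higher at that p, and 622 lower and 759 higher did not overlap. The median of the list was -0.20. Acta2, the actin of vascular and airway smooth muscle, stood at 11.55 and 12.48 in T/HS-LDL and at 12.66 and 13.69 in T/SS-LDL. The groups were apart by little, as the samples within each group differed by about as much as the group means, and the difference was -1.16 ± 0.39. Its 3 probe sets were all lower, by -1.16, -1.27 and -0.37, but actin genes are alike in sequence and the larger differences come from probe sets whose names mark them as not unique to 1 transcript.

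Myl9, the regulatory light chain of smooth muscle myosin, stood at 12.91 and 13.11 in T/HS-LDL and at 13.61 and 13.94 in T/SS-LDL, a difference of -0.76 ± 0.20, or 1.70-fold lower. Tagln, the actin-binding protein SM22, stood at 12.56 and 12.64 against 12.99 and 13.31, a difference of -0.55 ± 0.19. Actg2, the actin of visceral smooth muscle, stood at 11.96 and 12.04 against 12.44 and 12.96, a difference of -0.70 ± 0.27. In these 3 genes the shock samples lay close together below both sham samples.

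Other smooth muscle genes lay the same way and were chosen after their values were seen. Myh11, the heavy chain of smooth muscle myosin, stood at 11.85 and 11.77 against 12.27 and 12.12, a difference of -0.39 ± 0.14. The thin filament proteins Cnn1 and Cald1 differed by -0.53 and -0.43, and the tropomyosin Tpm2 by -0.69. Tpm1, the other tropomyosin gene, which muscle and other cells splice differently, stood at 10.92 and 10.55 against 11.40 and 11.51 on the probe set with the smallest p, a difference of -0.72 ± 0.16. Its 5 probe sets gave -0.83, -0.72, -0.48, -0.14 and 0.01, so its difference depends on the part of the transcript read.

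Genes of heart-type muscle, as in pulmonary vein sleeves, were lower for 26 of 34, with 15 lower and 3 higher that did not overlap (622 and 759 of 4736 over all genes) and a median of -0.23. Actc1, the cardiac actin, stood at 12.08 and 11.22 in T/HS-LDL and at 12.55 and 13.31 in T/SS-LDL, the largest lower difference of the genes named by rule at -1.28 ± 0.35. The only probe set of Actc1 is also named as not unique to 1 transcript, and actin genes are alike in sequence. The promoter window of Actc1 is printed below for the CArG box it holds. Myl4, the atrial essential light chain, stood at 8.80 and 7.76 against 9.51 and 8.96, a difference of -0.96 ± 0.40, and the calcium pump Atp2a2 stood at 12.48 and 11.90 against 12.80 and 12.54, a difference of -0.48 ± 0.22. Replicate 2 of T/HS-LDL was the lowest sample for each of the 3 genes.

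The heart-type list rested on that sample. Myl7, the atrial regulatory light chain, stood at 11.25 and 9.73 in T/HS-LDL and at 11.48 and 11.42 in T/SS-LDL on one of its probe sets, and at 12.90 and 9.74 against 13.07 and 12.96 on the other. Myh6, the alpha myosin heavy chain, stood at 10.39 and 8.64 against 10.52 and 10.55, and Tnni3, cardiac troponin I, at 9.23 and 7.61 against 9.60 and 9.68. These 3 genes were chosen after their values were seen. Without replicate 2 of T/HS-LDL the list's median was -0.06 rather than -0.23, and without replicate 2 of T/SS-LDL it was -0.13. Its summed intensity was 62066 and 42760 in T/HS-LDL and 67619 and 72881 in T/SS-LDL. It also differed between the samples with the duct open, with 50623 in the averaged T/SS pair and 64517 in T/SS replicate 1, so this amount varied among sham samples too.

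The smooth muscle list did not rest on 1 sample in the same way. Its summed intensity was 80530 and 87744 in T/HS-LDL and 96778 and 112649 in T/SS-LDL, and its median lay between -0.27 and -0.16 when each ligated sample was left out in turn. Whether the amount of heart-type muscle in a piece of lung has a part in the genes both lists share, such as Tpm1 and Des (desmin, named after its values were seen), was not tested. Skeletal muscle genes, which would mark chest wall or diaphragm, had 9 higher and 9 lower of 18 and a median of 0.01.

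The CArG box is the sequence that serum response factor binds in promoters of muscle and immediate early genes, and the window from 250 bases before to 50 bases after each start site in RefSeq (build GRCr8) was searched for it on both strands. Only its strict form was searched, an unbroken run of A or T between CC and GG. This form was found in 548 of 33469 windows (1.64%). That is a share of windows, whereas a gene of a list counted when any of its windows held a match, so the shares are not directly comparable. Among the measured genes that had a window the strict form was found for 0 of 16 smooth muscle genes, 4 of 30 heart-type genes (13.3%) and 5 of 22 immediate early genes (22.7%). Boxes with another base in the run, or outside the window, were not searched, so a gene without a match may still hold one. The windows of Actc1 and of Klf6, an immediate early zinc finger gene chosen after its values were seen, are shown up to 20 bases after the start site, since they stand for a lower and a higher member. Capitals mark the CArG box, which begins at base 3 after the start site in Actc1 (chr3:121271808-121272077, minus strand) and at base -201 in Klf6 (chr17:69458459-69458728, minus strand).
Actc1: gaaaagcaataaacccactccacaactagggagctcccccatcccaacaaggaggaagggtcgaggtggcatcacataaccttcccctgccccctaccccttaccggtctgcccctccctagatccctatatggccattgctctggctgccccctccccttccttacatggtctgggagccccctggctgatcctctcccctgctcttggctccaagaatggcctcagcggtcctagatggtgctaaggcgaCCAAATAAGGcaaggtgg
Klf6: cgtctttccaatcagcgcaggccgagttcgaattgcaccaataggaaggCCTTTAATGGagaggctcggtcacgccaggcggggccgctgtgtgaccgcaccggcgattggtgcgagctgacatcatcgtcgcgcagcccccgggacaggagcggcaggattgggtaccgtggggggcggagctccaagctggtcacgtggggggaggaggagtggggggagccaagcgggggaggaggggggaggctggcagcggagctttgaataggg
Klf6 stood at 12.33 and 12.72 in T/HS-LDL and at 12.16 and 12.31 in T/SS-LDL, a difference of 0.29 ± 0.21, while Actc1 above differed by -1.28. A match in these letters is a description of the window, and the binding of the factor was not measured.

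**Figure D2:**
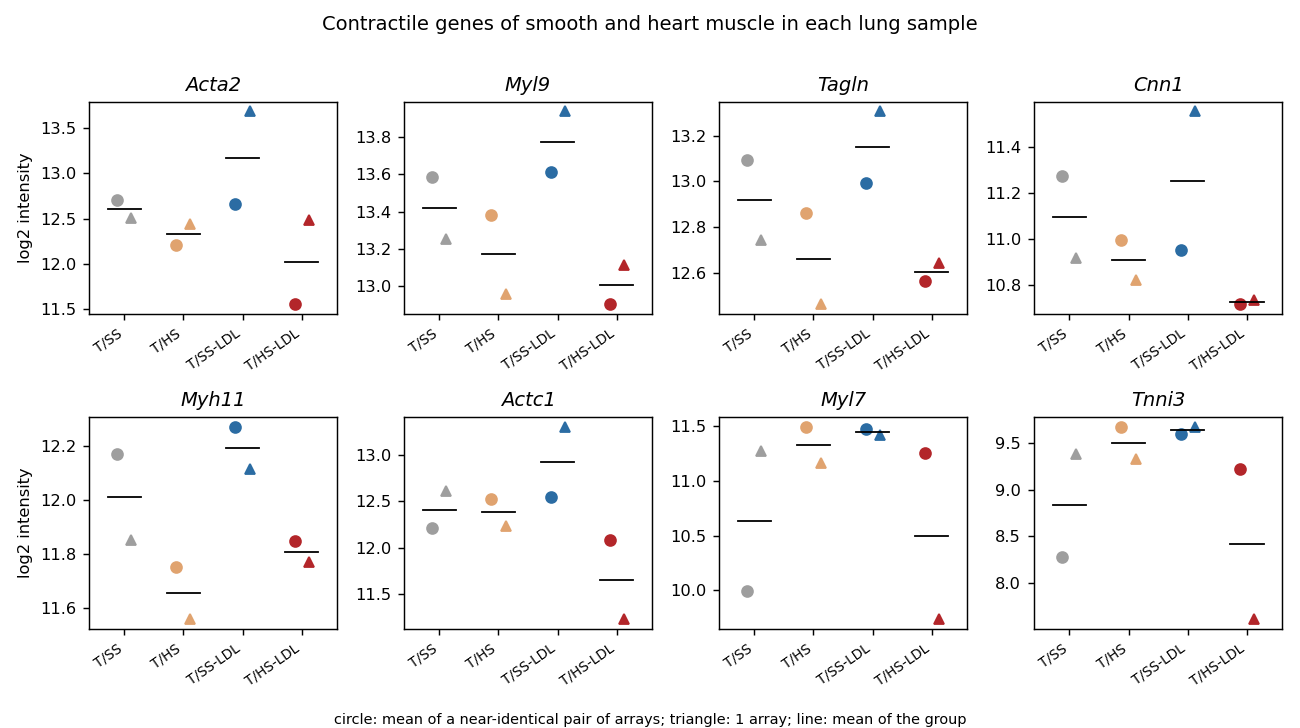
Log2 intensity (vertical axis) of 8 contractile genes in each of the 8 lung samples, by group (horizontal axis), with circles for means of near-identical pairs, triangles for 1 array and lines for group means. The T/HS-LDL samples lie below the T/SS-LDL samples in each panel, closely together for Tagln (12.56 and 12.64) and far apart for Myl7 (11.25 and 9.73) and Tnni3 (9.23 and 7.61).

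The vascular tone list as a whole was even, 23 higher and 24 lower of 47 with a median of -0.01, but both subunits of soluble guanylate cyclase, the nitric oxide receptor that relaxes smooth muscle, were among the lower genes. Gucy1a1 stood at 12 and 12.06 in T/HS-LDL and at 12.50 and 12.37 in T/SS-LDL, a difference of -0.41 ± 0.09, or 1.33-fold lower. Gucy1b1 stood at 11.13 and 10.76 against 11.70 and 11.38, a difference of -0.60 ± 0.16. Agtr1a, the angiotensin II receptor that constricts vessels, stood at 8.63 and 8.64 against 9.07 and 9.02, a difference of -0.41 ± 0.14, and its 4 probe sets were all lower. The samples of the groups were apart for the 3 genes, so a gene of relaxation and a gene of constriction lay the same way.

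Klkb1, plasma prekallikrein, which releases bradykinin from kininogen, stood at 8.84 and 8.62 in T/HS-LDL and at 10 and 9.40 in T/SS-LDL. Its difference of -0.97 ± 0.20 was 1.96-fold. Both T/SS-LDL samples were high, while the duct-open samples lay at 8.89 and 8.78 in T/HS and at 8.83 and 8.91 in T/SS, near those of T/HS-LDL. Endothelial genes were lower for 13 of 17 with a median of -0.05 (-0.18 without the averaged T/SS-LDL sample and 0.00 without replicate 2 of T/SS-LDL), none at an unadjusted p under 0.05. The largest difference of that list was a higher one, that of Selp above at 1.43. Outside the list, Nrp1, the neuropilin coreceptor for VEGF on vessels, stood at 11.23 and 10.86 against 12.05 and 12.27, a difference of -1.11 ± 0.33. Tmem47, a junction-associated membrane protein that is not of the list either, stood at 11.76 and 12.13 against 12.71 and 12.57, a difference of -0.70 ± 0.14.

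Alveolar type I cells form the thin gas-exchange surface, and 7 of their 8 measured markers were lower, with a median of -0.22. Without replicate 2 of T/SS-LDL that median was -0.06, and without replicate 2 of T/HS-LDL it was -0.14. Akap5, a scaffold that anchors protein kinase A, had one of the smallest p of all genes (unadjusted limma p 0.000799). It stood at 7.64 and 7.68 in T/HS-LDL and at 8.15 and 8.22 in T/SS-LDL, a difference of -0.52 ± 0.09 at a dim level. Pdpn, podoplanin of the apical membrane, stood at 12.32 and 12.52 against 13.09 and 12.66, a difference of -0.46 ± 0.16. Ager, at the top of the scale, was the 1 member that was not lower, at 0.04. Alveolar type II markers, which serve surfactant, were higher for 8 of 12 with a median of 0.04, and those of surfactant itself were at the top of the scale.

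Airway markers were lower for 12 of 18, with a median of -0.13. At an unadjusted p under 0.05 there were 4 lower and none higher, against 103 lower and 92 higher of 4736 over all genes. Cyp2f4, a cytochrome P450 of club cells, stood at 12.12 and 11.92 in T/HS-LDL and at 12.61 and 12.46 in T/SS-LDL, a difference of -0.52 ± 0.11. The duct-open samples lay between 11.98 and 12.04, close to T/HS-LDL. Ift25, a part of the machinery that builds cilia, stood at 9.49 and 9.31 against 10.08 and 9.99, a difference of -0.64 ± 0.13. Aldh1a1, a retinal dehydrogenase of airway epithelium, stood at 13.71 and 14.01 against 14.47 and 14.30, a difference of -0.53 ± 0.18. Krt18, a keratin of simple epithelia, differed by -0.41 ± 0.11 with 10.68 and 10.72 against 10.98 and 11.23.

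Genes that move sodium, chloride and water across epithelium were lower for 19 of 24, 10 lower and 2 higher without overlap (622 and 759 of 4736 over all genes), with a median of -0.13. That median was -0.19 without the averaged T/SS-LDL sample and -0.08 without replicate 2 of T/SS-LDL. Cldn3, a claudin of tight junctions, stood at 12.25 and 12.11 in T/HS-LDL and at 12.70 and 12.66 in T/SS-LDL, a difference of -0.50 ± 0.13. Fxyd1, a regulator of the sodium pump, stood at 11.81 and 11.83 against 12.25 and 12.13, a difference of -0.37 ± 0.12, and the airway water channel Aqp3 at 8.73 and 8.73 against 9 and 8.96, a difference of -0.25 ± 0.09. In these genes both shock samples were lower. The water channel Aqp1 of capillary endothelium, chosen after its values were seen, went the other way, at 13.23 and 13.05 against 11.64 and 12.77, a difference of 0.94 ± 0.37 in which the averaged T/SS-LDL sample was the low one.

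**Figure D3:**
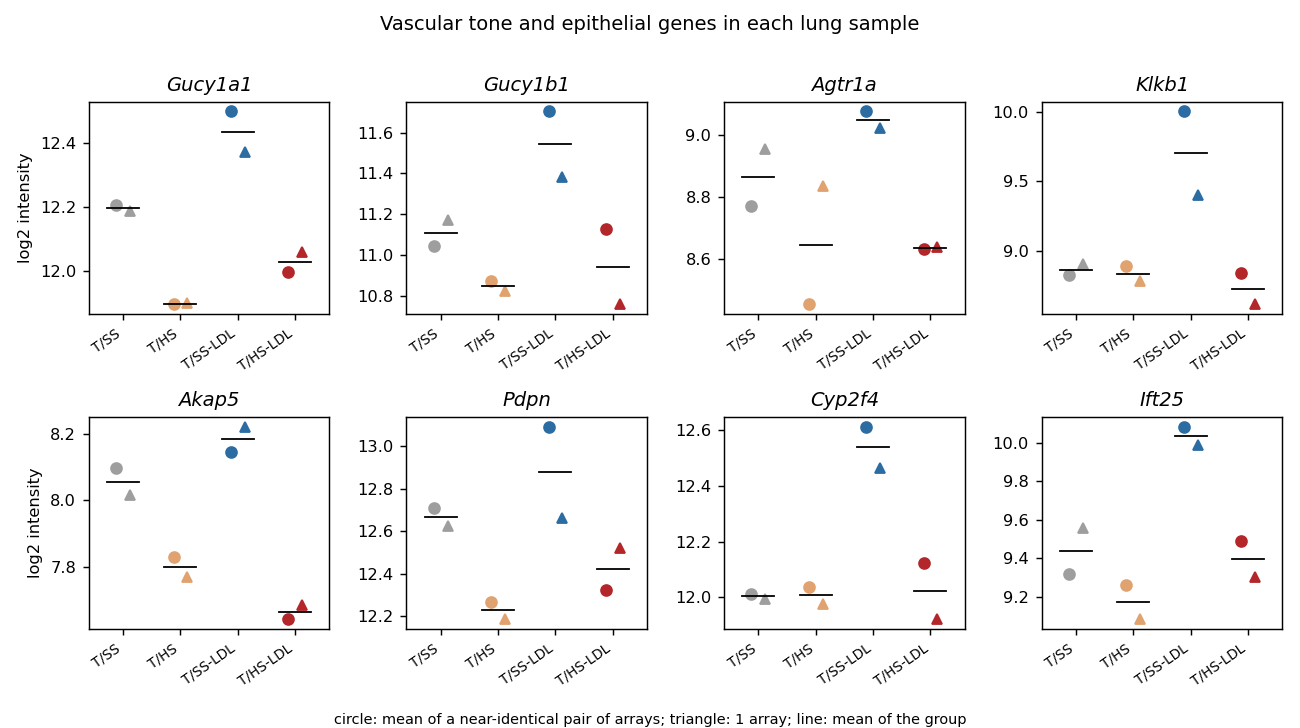
Log2 intensity (vertical axis) of 8 vascular tone, alveolar and airway genes in each of the 8 lung samples, by group (horizontal axis), with circles for means of near-identical pairs, triangles for 1 array and lines for group means. The T/HS-LDL samples lie below the T/SS-LDL samples in each panel, and in each panel but that of Pdpn the T/SS-LDL samples are also above all duct-open samples, as for Klkb1 (10 and 9.40) and Cyp2f4 (12.61 and 12.46).

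Matrix genes were even, 18 higher and 19 lower of 37 with a median of -0.02. Dcn, decorin, which binds collagen fibrils, stood at 9.73 and 9.33 in T/HS-LDL and at 9.99 and 10.36 in T/SS-LDL, a difference of -0.64 ± 0.18 on the probe set with the smallest p. Its brightest probe set differed by -0.43 and the other 2 by -0.38 and -0.37 with overlapping groups. Col5a2, a chain of type V collagen, stood at 12.52 and 12.52 against 12.96 and 12.76, a difference of -0.34 ± 0.11. Fstl1, a secreted glycoprotein of mesenchyme, stood at 11.93 and 12.13 against 12.57 and 12.93, a difference of -0.72 ± 0.18. Fn1, fibronectin, differed by -0.56 on 1 probe set and between -0.08 and 0.07 on the other 4. Fibroblast markers had 10 higher and 11 lower of 21.

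Genes of the mitochondrial respiratory chain were lower for 31 of 36, 12 of them without overlap and none higher without overlap, against 622 lower and 759 higher of 4736 over all genes, with a median of -0.09. That median was -0.18 without replicate 2 of T/SS-LDL, -0.17 without replicate 2 of T/HS-LDL, and -0.03 and -0.04 without the averaged T/SS-LDL and T/HS-LDL samples. The differences were small: Slc25a4, the ADP and ATP exchanger of muscle, stood at 12.69 and 12.54 in T/HS-LDL and at 12.99 and 13.02 in T/SS-LDL, a difference of -0.39 ± 0.10. Ndufc1, of complex I, stood at 11.68 and 11.67 against 12.12 and 11.93, a difference of -0.35 ± 0.15, and Uqcrfs1, the iron-sulfur protein of complex III, differed by -0.28 ± 0.11. Atp5pb, of ATP synthase, chosen after its values were seen, stood at 10.13 and 12.40 against 12.79 and 12.43, so that the averaged T/HS-LDL sample alone was low. Ribosomal proteins, another set of abundant housekeeping transcripts, had 21 higher and 16 lower of 37 and a median of 0.01. The pore protein Vdac1 of the outer mitochondrial membrane had the highest difference of the list, 0.48 on its brighter probe set with overlapping groups. Its other probe set, which is not the one counted in the list, stood at 9.16 and 8.93 against 7.92 and 8.77, a difference of 0.70 ± 0.25 in which the averaged T/SS-LDL sample was the low one.

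Metabolic lists had medians near 0 and genes on both sides. Cbr1, a carbonyl reductase, stood at 9.97 and 10.20 in T/HS-LDL and at 10.51 and 10.60 in T/SS-LDL, a difference of -0.47 ± 0.11. Me1, malic enzyme, which supplies NADPH for lipid synthesis, stood at 9.35 and 9.62 against 10.14 and 9.83, a difference of -0.50 ± 0.14. On the higher side Cyp51, the sterol demethylase, stood at 9.09 and 9.19 against 8.75 and 8.65, a difference of 0.44 ± 0.15, and its other 4 probe sets differed by 0.03 to 0.20. Of 47 genes of xenobiotic metabolism 3 were lower and 2 higher at an unadjusted p under 0.05, against 103 lower and 92 higher of 4736 over all genes. The higher ones were Arnt, the partner of the aryl hydrocarbon receptor, at 0.38 and Cyp3a2, a cytochrome P450 named after its values were seen, at 0.22. The medians were -0.04 over these 47 genes, -0.03 over 23 of sterol and fatty acid synthesis and -0.01 over 28 of hypoxia and glycolysis. In the last list the 1 gene at an unadjusted p under 0.05 was Ldhb, a lactate dehydrogenase subunit, at -0.28 ± 0.11, and only 1 of its 2 probe sets was lower.

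Among genes of no list, Pafah1b1, which encodes the dynein regulator LIS1, stood at 11.84 and 11.59 in T/HS-LDL and at 10.82 and 11.10 in T/SS-LDL, a difference of 0.76 ± 0.14 with all 3 probe sets higher. St3gal5, which makes the ganglioside GM3, stood at 11.46 and 11.49 against 11.93 and 12.03, a difference of -0.50 ± 0.10. Eef2k, the kinase that slows protein elongation, stood at 9.67 and 9.86 against 9.03 and 8.29, a difference of 1.10 ± 0.28, and its other probe set differed by -0.01. The RNA-processing genes Nop58 and Snrpd3 differed by 1.23 ± 0.46 and 0.96 ± 0.27. On the lower side Gp2, Lig4, Ptov1, Schip1 and Cadps2 differed by between -1.10 and -0.69.

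**Figure D4:**
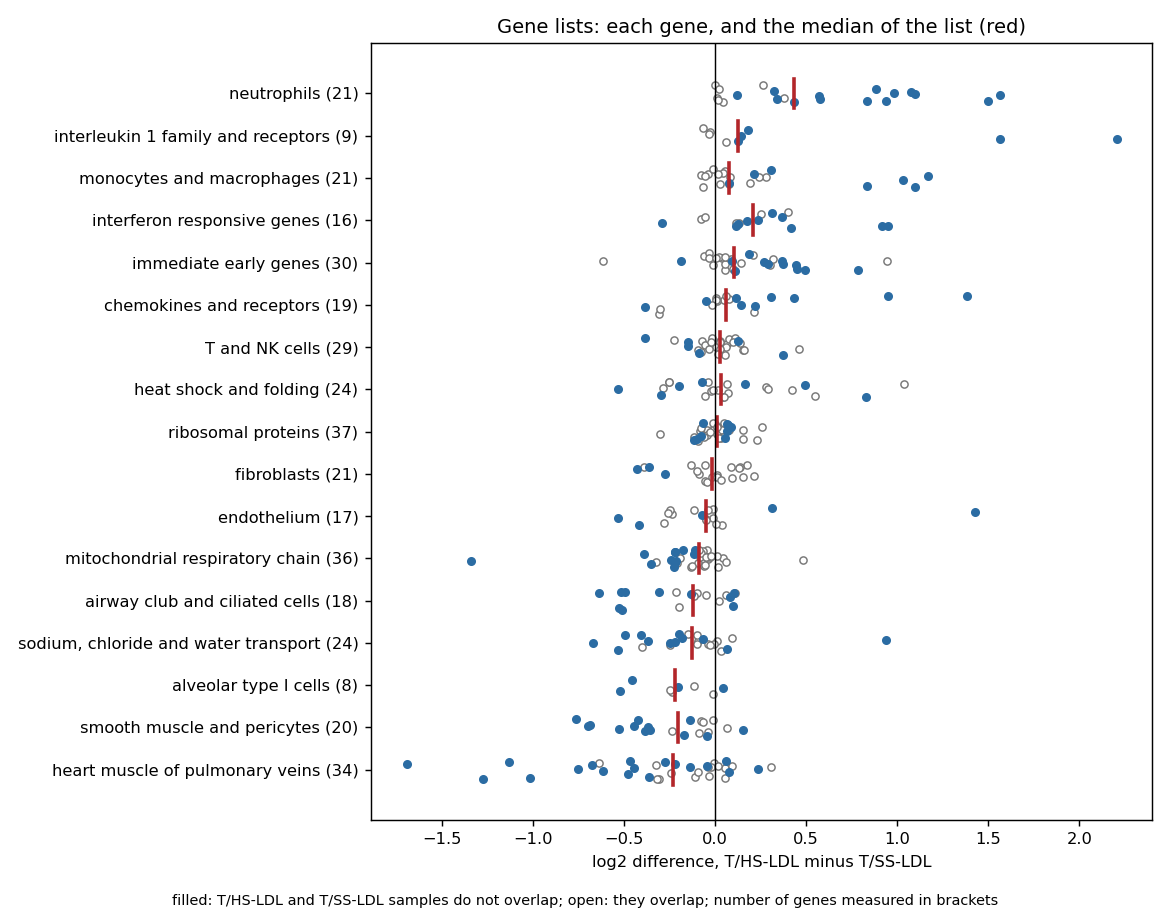
Log2 difference, T/HS-LDL minus T/SS-LDL (horizontal axis), of every measured gene of 17 gene lists (vertical axis, number of genes in brackets), with filled points for genes whose samples do not overlap between the groups and a red bar for the list's median. Neutrophil genes have the highest median (0.43), heart muscle (-0.23), alveolar type I (-0.22) and smooth muscle (-0.20) the lowest of those drawn, although without 1 sample the alveolar type I median was as near 0 as -0.06 and the heart muscle median as -0.06.

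The samples with the duct open share no array with the ligated groups, so their differences, T/HS minus T/SS, were set beside the ligated ones. The p that picked probe sets still rests in part on the spread of the duct-open samples, as the fit covers all 4 groups. Of the 158 probe sets higher at an unadjusted p under 0.05 with ligation, 124 (78.5%) were also higher with the duct open, and of the 173 lower ones 143 (82.7%) were also lower. Over all 8740 probe sets the signs were the same for 57.1%, with 55.1% of those above 0 with ligation and 59.5% of those below 0. Of the 34 probe sets over 2-fold higher 28 (82.4%) shared their sign with the duct open, and of the 18 over 2-fold lower 11 (61.1%) did, with a median of -1.17 with ligation and -0.12 with the duct open. For Il1b the open difference was 2.90, for Il1r2 1.59, for S100a8 1.36, for Hp 1.67, for Ccr1 1.22 and for Cd14 1.25, next to 2.21, 1.56, 1.08, 1.5, 1.38 and 1.10 with ligation. Among the lower genes the open difference was -0.03 for Actc1, -0.03 for Klkb1 and -0.15 for Nrp1, next to -1.28, -0.97 and -1.11 with ligation. For other lower genes it was alike, at -0.65 for Tmem47, -0.61 for Cryab and -0.56 for Schip1, next to -0.70, -0.53 and -0.70. Some higher genes did not share theirs: Eef2k had -0.47 and Snrpd3 0.04 with the duct open, next to 1.10 and 0.96. All of these genes are examples, picked with both differences known. The neutrophil list had a median of 0.65 with the duct open, with 20 of 21 higher, and smooth muscle a median of -0.16, with 16 of 20 lower. The heart-type list had a median of 0.11 with the duct open and so the other sign.

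A test of the difference itself, the interaction of shock and ligation, called no probe set in limma (0 of 8740, or 0%), with a smallest adjusted p of 1.00 and 261 at an unadjusted p under 0.05 (2.99%). No gene is thus shown to respond differently to shock with and without ligation. Mapk12, the stress kinase p38 gamma, read here on 1 of its 2 probe sets, had the smallest interaction p of the named genes (unadjusted limma p 0.000673). It stood at 10.38 and 10.31 in T/HS-LDL and at 10.31 and 10.28 in T/SS-LDL, but at 9.46 and 9.65 in T/HS and at 10.35 and 10.54 in T/SS. Only the T/HS samples were low, and the interaction was 0.93 ± 0.16.

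Canx, the chaperone calnexin, and Zfp706, a small zinc finger protein, showed the same order, with interactions of 1.13 ± 0.25 and 0.88 ± 0.20. The 5 probe sets of Canx gave interactions from -0.26 to 1.56, and the other probe set of Zfp706 gave -0.03. Gda, guanine deaminase, had another order, with 11.99 and 12.66 in T/HS-LDL, 12.84 and 12.54 in T/SS-LDL, 12.85 and 13.89 in T/HS, and 11.49 and 11.41 in T/SS. All samples but those of T/SS were high for Gda, and the interaction was -2.28 ± 0.50. Its other probe sets gave -1.43 and 0.04. Tpm1 had an interaction of -1.27 ± 0.23, from a difference of -0.72 with ligation and 0.55 with the duct open, which its other 4 probe sets did not share (-0.10 to 0.29), and Irgq, of the immunity-related GTPase family, 0.91 ± 0.20, from 0.59 and -0.33. Kit, the stem cell factor receptor of mast cells and progenitors, was lower in both, by -0.61 with 8.57 and 8.51 against 8.88 and 9.42, and by -1.52 with the duct open. Its other probe set differed by -0.17 with ligation. The 15 mast cell markers had 10 higher and 5 lower with ligation.

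**Figure D5:**
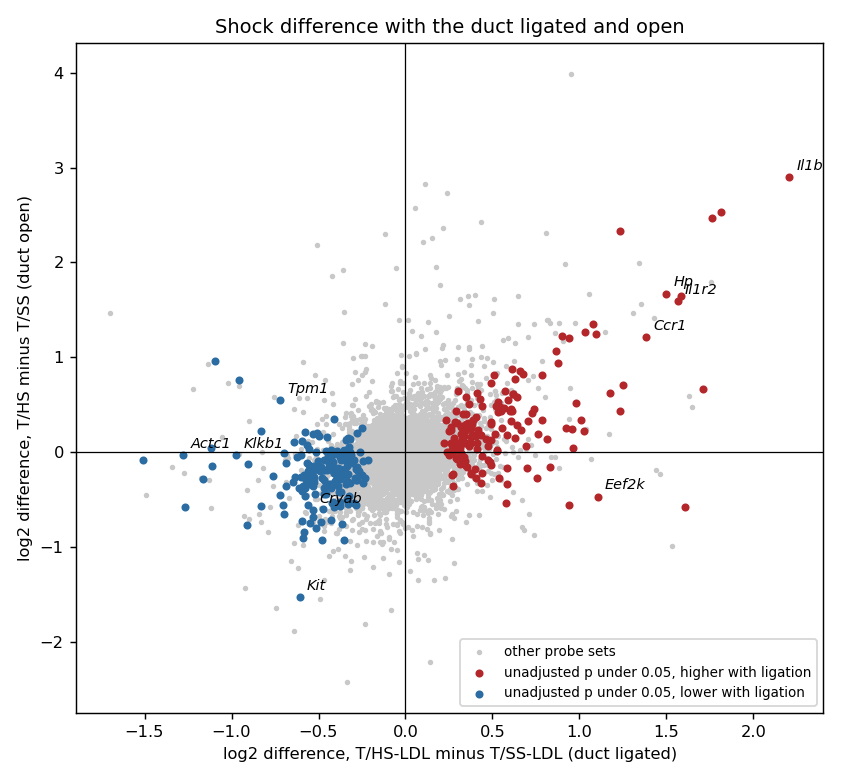
Log2 difference of shock and sham shock with the duct ligated (horizontal axis) and with the duct open (vertical axis), 1 point for each of 8740 probe sets, with red and blue points at an unadjusted p under 0.05 in the ligated comparison. Of the 158 red points 124 lie above 0 on the vertical axis and of the 173 blue points 143 lie below it, and Il1b stands farthest to the right at 2.21.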

How the data were processed

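Polyadenylated RNA of rat lung was hybridised to 12 Affymetrix rat genome arrays, 1 sample an array. The values are linear intensity per probe set, which the authors deposited after RMA, per the submitters' processing notes (version not given in the sources used here); log2 was taken with no further scaling. The 59 control probe sets of 8799 took no part. Symbols came from the platform's annotation, brought up to date by Entrez ID: 7006 of the 8740 probe sets had 1 symbol, 308 several (not named) and 1426 none.

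Arrays of a group whose log2 differences had a robust SD under 0.1 were averaged to 1 sample, which left 8. One model with the 4 groups was fitted with limma 3.58.1 in R 4.3.3 (4 residual and 2.85 prior degrees of freedom), two-sided, with Benjamini-Hochberg adjustment over 8740 probe sets. The p-values measure the spread between these samples, which may in part be technical, and the number of arrays limits the precision. The fit was tested on simulated data. Same-numbered ligated samples did not deviate together (r = 0.021), and no pairing is stated in the labels.

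Lists use, for each gene, its brightest probe set on average. Genes were named by rule: up to 15 in each direction with an unadjusted p under 0.05, groups that do not overlap a level at or above the 25th percentile and no array within 2% of its top, by size; the 10 with the smallest p; of each of 40 lists up to 4 with the smallest p and the 2 brightest; and 8 by interaction p. The comparison, lists and rules were chosen with earlier results of these data known. Alternatives were other scalings, filters, fits and each ligated sample left out.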

Additional observations from a re-analysis of the deposited data

How the results depend on the processing

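The count of 0 probe sets past an adjusted p of 0.05 held under 13 of 15 alternatives. With all 12 arrays as separate samples it was 127 (51 higher, 76 lower), and with the replicate block added 47 (25 and 22), with 1 interaction in each; there the near-identical arrays count as independent. The replicate block gave 0 with the 6 ligated arrays and with the 4 ligated samples. Of 99 named genes 40 passed with 12 separate arrays and 23 with the replicate block, Il1b, Il1r2, Alox5ap, Fgr, Klkb1, Akap5, Cyp2f4, Gucy1a1 and Gucy1b1 in both. In direction 98 of 99 held under each alternative that gave them a value (4 have none once dim probe sets are left out); Lcn2 was -0.21 without replicate 2 of T/SS-LDL and between 0.067 and 0.96 without another sample. The neutrophil median was 0.51 with 12 separate arrays, with or without the replicate block, and with the 6 ligated arrays, 0.38 with a pseudocount of 50, 0.57 without dim probe sets, and 0.38 to 0.56 with a ligated sample left out (0.40 without the averaged T/HS-LDL sample). With replicate 2 of T/HS-LDL, the averaged T/SS-LDL sample or replicate 2 of T/SS-LDL left out, the interleukin 1 median was 0.23, 0.072 or 0.15. Over the samples left out in turn the mitochondrial median was -0.18 to -0.03 (-0.17 without replicate 2 of T/HS-LDL), and the heart-type median was -0.29 to -0.064 (-0.064 without replicate 2 of T/HS-LDL, -0.13 without replicate 2 of T/SS-LDL). Fits of the ligated samples alone give no interaction. Probe sets above 0 were 54.1%, but 47.7% with arrays centred on their medians and 50.5% after quantile normalization. Signals near the top of the scale, 74 probe sets, limit what can be seen there.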
